A study of Mus musculus with 35 samples.

Results

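Macrophages of mouse hind paw skin were followed through 10 genes: Emr1, which encodes the F4/80 antigen, Cd68, Lyz2, Csf1r, Mrc1, Cd163, Folr2, Lyve1, Arg1 and Retnla. They were chosen by symbol, as common identity and activation markers, with earlier results of these data known, as were the gene lists used below. All 10 were found among the 22609 gene symbols of the count tables, 17169 of them with reads in some library. The data were messenger RNA libraries of cells sorted from hind paw skin of C57 mice aged 8 to 16 weeks, 35 in all. PTX is paclitaxel, a microtubule-binding drug used in cancer treatment, and was injected into the peritoneum of males at 2 mg/kg on 2 consecutive days, and cells were collected 6 days later. CD45+ immune cells came from wild-type mice: PTX males, vehicle males and vehicle females, 4 libraries each. Keratinocytes were sorted by tdTomato from K5-cre-ER/tdTom mice, with 4 libraries of PTX males, 3 of vehicle males and 4 of vehicle females. Fibroblasts were sorted by tdTomato from Col1a2-cre-ER/tdTom mice, with 4 libraries in each of the same 3 groups. The tdTomato sorts therefore rest on where an inducible Cre under the K5 or Col1a2 promoter was active, and no PTX females are among the samples. The labels do not say that libraries came from separate mice, so a p-value here reflects the spread among libraries and nothing more, and that spread may be technical.

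Tissue macrophages take up particles, dying cells and proteins and are kept alive through CSF1R, the receptor of CSF1 and IL34. Dermal macrophages near vessels and nerves are known for scavenger receptors such as CD206 (Mrc1), CD163 and LYVE1. Exposure to IL4 or IL13 induces Arg1 and Retnla in mouse macrophages through STAT6, a state often called alternative activation.

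Immune libraries held 13847475 to 18979776 reads counted in genes, fibroblast libraries 13359088 to 20809036 and keratinocyte libraries 6518070 to 12055718, apart from 1 vehicle female keratinocyte library with 988712. All levels are read counts scaled to library size (CPM) with TMM factors within a sort, and errors of levels are SD. Ptprc, the gene of CD45, was at 639 ± 156 CPM in immune libraries of PTX males, 481 ± 99.0 CPM in those of vehicle males and 580 ± 119 CPM in those of vehicle females (n = 4 each). The immune libraries of vehicle males also held markers of other skin cells: the summed level of 12 fibroblast genes was 300 to 1518 CPM in PTX males, 4727 to 10500 CPM in vehicle males and 87.2 to 431 CPM in vehicle females. The summed level of 12 mast cell genes was 3933 to 10308 CPM in PTX males, 1772 to 3246 CPM in vehicle males and 7063 to 8903 CPM in vehicle females. In the fit of PTX males against vehicle males 669 of 12131 genes (5.51%) passed an adjusted p of 0.05, 116 of them higher. With plain CPM in place of TMM scaling 37 of 644 were higher, and the median log2 fold change of all genes was -0.26 in place of 0.10.

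Every macrophage gene marked the immune sort. All 10 were higher in vehicle immune libraries than in vehicle fibroblast libraries, by 7.40 to 8.75 on the log2 scale (edgeR quasi-likelihood test, adjusted p at most 0.00109), where 13.3% of all genes tested were called higher. No vehicle immune library overlapped a vehicle fibroblast library for any of the 10, as was so for 8.54% of all genes. All 10 were also higher than in vehicle keratinocyte libraries, by 6.66 to 13.97 on the log2 scale (adjusted p at most 0.000416), where 23.5% of all genes were called higher, and again none of the 10 overlapped, against 9.66% of all genes. Fewer cells of a type and less RNA per cell cannot be told apart in such bulk libraries.

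Emr1 rose in the immune libraries of PTX males relative to vehicle males. It stood at 812, 741, 595 and 984 CPM in the 4 libraries of PTX males, against 459, 292, 417 and 367 CPM in vehicle males and 640.0, 512, 622 and 767 CPM in vehicle females. Every PTX library lay above every vehicle male library, while the ranges of PTX males and vehicle females overlapped. The log2 fold change against vehicle males was 1.03 ± 0.22 (SE, adjusted p = 0.0192), and against vehicle females 0.30 ± 0.22 (adjusted p = 0.657). F4/80 is an adhesion receptor used to define mouse macrophages by flow cytometry. The call depended on single libraries: the adjusted p was 0.0829, 0.0604 and 0.0661 without vehicle male replicates 2, 3 and 4, and 0.0546 without PTX male replicate 4. It was 0.0644 with plain CPM, 0.163 with voom and 0.091 when only genes most abundant in the vehicle immune libraries were fitted. The number of all genes called, 669 in the main fit, ran from 230 to 954 when 1 library was left out. That number was 644 with plain CPM, 38 with voom and 114 with only the immune genes. Set against Ptprc, PTX males had 71.0 to 212 Emr1 reads per 100 Ptprc reads, vehicle males 49.7 to 102 and vehicle females 71.3 to 146, so that ratio overlapped in all groups.

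Cd68, which encodes a glycoprotein of lysosomes and endosomes, was at 1141, 1545, 1525 and 1914 CPM in PTX males, against 1187, 748, 810 and 683 CPM in vehicle males and 1712, 1145, 1804 and 1215 CPM in vehicle females. PTX replicate 1 and vehicle male replicate 1 were the pair that overlapped. Its change of 0.84 ± 0.23 on the log2 scale against vehicle males did not pass the threshold (adjusted p = 0.0518). It passed with RLE scaling (0.0445), with DESeq2 (0.00985), and without PTX male replicate 1 (0.0408) or vehicle male replicate 1 (0.0468).

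Lyz2, the lysozyme of macrophages, monocytes and neutrophils, was at 12715, 11466, 11860 and 17985 CPM in PTX males, against 11805, 8972, 9536 and 6941 CPM in vehicle males and 15044, 8121, 13501 and 13707 CPM in vehicle females. The groups overlapped, and the log2 fold change against vehicle males was 0.54 ± 0.22 (adjusted p = 0.168). Lyz1 is a close copy of Lyz2, so reads shared by both may have been lost or split in counting and the Lyz2 level is uncertain.

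Csf1r was at 3213, 5916, 4044 and 5346 CPM in PTX males, against 4223, 3481, 3769 and 3532 CPM in vehicle males and 4575, 3330, 6126 and 5911 CPM in vehicle females. The vehicle male libraries lay inside the range of the PTX males. Its log2 fold change was 0.30 ± 0.22 with TMM scaling (adjusted p = 0.594) and -0.046 with plain CPM.

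**Figure D1:**
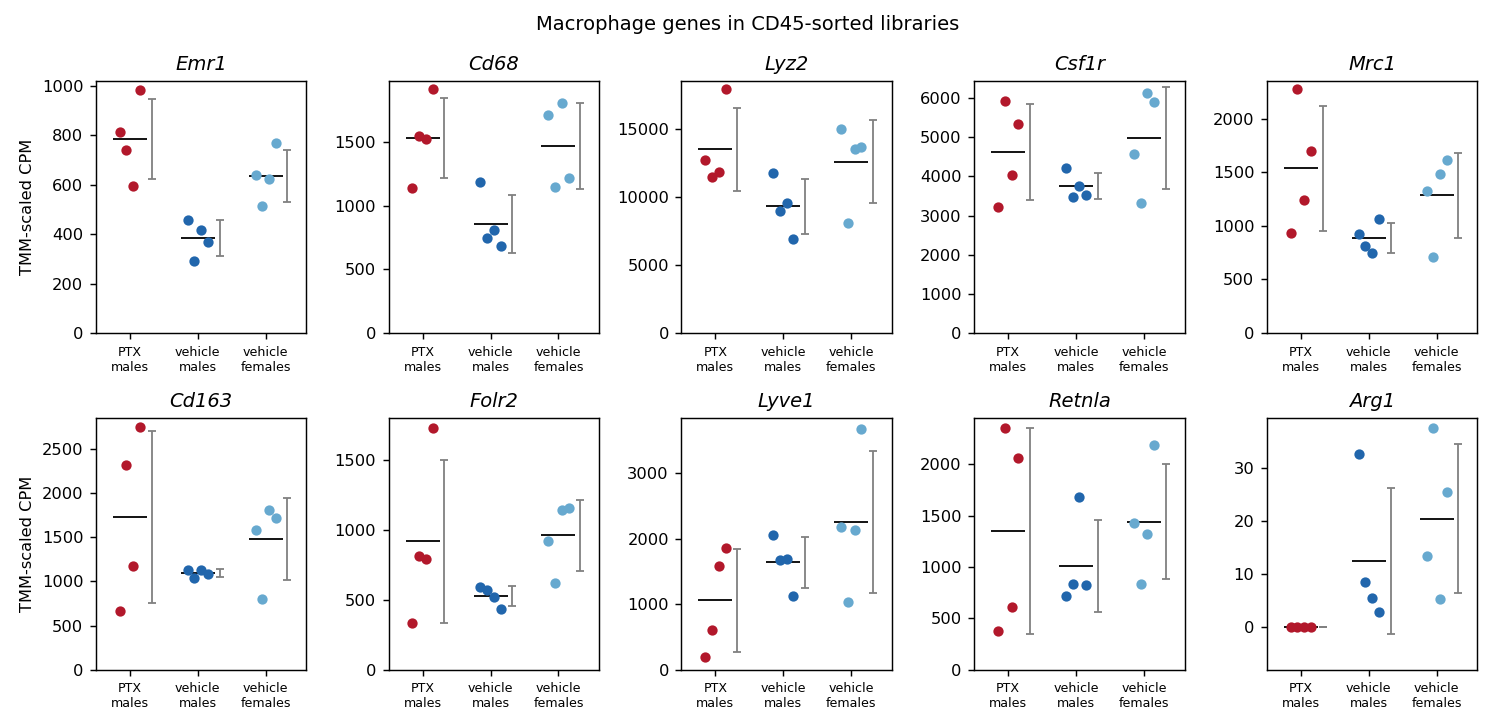
TMM-scaled CPM of the 10 genes in the immune libraries of PTX males, vehicle males and vehicle females (1 point per library, n = 4 per group, black line mean, grey bar SD). Emr1 of PTX males lies at 595 to 984 CPM, above all vehicle male libraries, and Arg1 of PTX males lies at or near 0, below all vehicle libraries, while the other genes overlap between PTX males and at least 1 vehicle group.

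The scavenger receptors of resident macrophages varied more between PTX libraries than between vehicle male libraries, and none passed the test. Mrc1, the mannose receptor CD206, was at 934, 2275, 1238 and 1700 CPM in PTX males, against 922, 816, 748 and 1061 CPM in vehicle males and 1323, 712, 1487 and 1617 CPM in vehicle females. In 3 of 4 PTX libraries Mrc1 lay above all vehicle male libraries, and the log2 fold change was 0.79 ± 0.29 (adjusted p = 0.127).

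Cd163, the receptor that clears haemoglobin bound to haptoglobin, was at 664, 2320 and 1175 CPM in PTX replicates 1 to 3 and at 2750 CPM in replicate 4. Vehicle males were close together at 1131, 1034, 1131 and 1086 CPM, and vehicle females were at 1578, 799, 1811 and 1724 CPM. Against vehicle males the log2 fold change was 0.66 ± 0.37 (adjusted p = 0.395). The SD was 972 CPM in PTX males and 46.2 CPM in vehicle males, and that difference in spread was not tested.

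Folr2, folate receptor beta, was at 337, 813, 791 and 1736 CPM in PTX males, against 593, 573, 520 and 433 CPM in vehicle males and 926, 620 and 1148 CPM in vehicle female replicates 1 to 3, with 1161 CPM in replicate 4. PTX replicate 1 was the lowest of the 12 libraries and PTX replicate 4 the highest. On the log2 scale the change against vehicle males was 0.80 ± 0.38 (adjusted p = 0.264).

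Lyve1 encodes a hyaluronan receptor of perivascular macrophages and of lymphatic endothelium. It was at 188, 609, 1576 and 1854 CPM in PTX males, against 2063, 1674, 1687 and 1130 CPM in vehicle males and 2178, 1037, 2127 and 3670 CPM in vehicle females. With TMM scaling it was the only gene besides Arg1 with a negative log2 fold change against vehicle males, -0.63 ± 0.54 (adjusted p = 0.693), and against vehicle females it was -1.09 ± 0.55 (adjusted p = 0.37). Of lymphatic endothelial genes, Prox1 was at 0 to 0.0774 CPM in PTX males, 0.163 to 12.5 CPM in vehicle males and 0 in all vehicle females. The summed level of the 10 lymphatic genes was 126 to 433 CPM in PTX males, 186 to 284 CPM in vehicle males and 143 to 342 CPM in vehicle females, with Ccl21a and Mmrn1 at 0 in all 3 groups. Flt4 was also at 0 in PTX males and vehicle females, and Reln in PTX males. Only 4 of the 10 had enough reads to be tested, and Thy1 among the 10 is also a T cell gene. The sum is thus no measure of lymphatic endothelium alone, and the part of such cells in the Lyve1 values was not tested.

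Set against Cd68, Lyve1 was at 0.165, 0.394, 1.03 and 0.969 reads per Cd68 read in PTX males, against 1.74, 2.24, 2.08 and 1.65 in vehicle males and 1.27, 0.906, 1.18 and 3.02 in vehicle females. The PTX range lay below the vehicle male range and overlapped the vehicle female range. The same ratio was taken for 6990 genes with a mean of at least 20 CPM over the 12 immune libraries, genes of other cell types included. Of these 12.7% were lower without overlap between PTX males and vehicle males, so Lyve1 was 1 of many. Mrc1, Cd163 and Folr2 per Cd68 read overlapped between the same groups.

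The promoters of Mrc1 and Cd163 are shown because both genes varied together over the immune libraries, and that of Retnla because it carries a match to the letters of STAT6. Each is the 250 bases before the gene start, read on the + strand from RefSeq on build GRCm38.p6, at chr2:14229164-14229413 for Mrc1, chr6:124304401-124304650 for Cd163 and chr16:48842359-48842608 for Retnla. Capitals mark matches on either strand to GAGGAA (core of PU.1, the myeloid master factor), the STAT6 motif (TTC, any 4 bases, GAA), TTGCNNAA (C/EBP) or TGANTCA (AP-1). No 2 matches overlapped.
Mrc1 promoter: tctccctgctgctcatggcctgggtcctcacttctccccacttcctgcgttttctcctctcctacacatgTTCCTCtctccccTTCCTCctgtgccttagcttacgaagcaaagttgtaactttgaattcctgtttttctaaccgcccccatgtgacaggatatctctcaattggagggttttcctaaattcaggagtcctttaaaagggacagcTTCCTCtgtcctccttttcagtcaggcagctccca
Cd163 promoter: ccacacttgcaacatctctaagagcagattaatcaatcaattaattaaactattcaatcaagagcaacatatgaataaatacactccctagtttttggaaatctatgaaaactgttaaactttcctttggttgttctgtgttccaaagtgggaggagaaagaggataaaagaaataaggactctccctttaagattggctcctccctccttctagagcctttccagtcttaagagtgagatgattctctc
Retnla promoter: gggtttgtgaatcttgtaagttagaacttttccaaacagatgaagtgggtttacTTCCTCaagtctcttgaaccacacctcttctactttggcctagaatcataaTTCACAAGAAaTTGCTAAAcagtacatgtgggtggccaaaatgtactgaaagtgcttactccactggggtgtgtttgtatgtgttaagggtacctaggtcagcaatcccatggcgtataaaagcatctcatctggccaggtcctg
Mrc1 held 3 matches to GAGGAA, Cd163 none of any motif, and Retnla 1 each to GAGGAA, the STAT6 motif and TTGCNNAA. Among 32851 promoter windows of that length 23.3% held GAGGAA, 5.85% the STAT6 motif, 9.56% TTGCNNAA and 6.75% TGANTCA. A match is a stretch of letters and not a shown binding site.

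Arg1, arginase of the urea cycle and a marker of alternative activation, fell to near 0 in the immune libraries of PTX males. It had 0, 1, 1 and 0 reads in PTX males, against 654, 152, 102 and 60 reads in vehicle males and 258, 602, 89 and 456 reads in vehicle females. In CPM these were at most 0.0774 in PTX males, 2.93 to 32.7 in vehicle males and 5.39 to 37.5 in vehicle females, with no overlap. Pooled and set against library totals, vehicle males had 422 times the Arg1 share of PTX males (95% counting interval 117 to 3490) and vehicle females 632 times (175 to 5220), intervals that cover counting error only. The quasi-likelihood test gave an adjusted p of 0.0185 against vehicle males and 0.0304 against vehicle females.

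The near loss of low genes was common in these PTX libraries. Of 3406 genes at a mean of 10 to 30 CPM in vehicle males, the range that holds Arg1, 225 or 6.61% had at most 1 read in each of the 4 PTX libraries, and of 2542 genes at 3 to 10 CPM 776 or 30.5% did. Of 3142 genes at 10 to 30 CPM in vehicle females the share was 3.34%. Genes with more than 10 counts numbered 5956 to 8700 per PTX library, against 11000 to 12813 in vehicle males and 10974 to 11036 in vehicle females. Markers of some other cell types were lower than in vehicle males in the same libraries, and those of others were not. Of all genes tested 4.56% were called lower and 0.956% higher against vehicle males, and 1.53% were called lower against vehicle females. Of 12 fibroblast genes 7 were called lower against vehicle males, but against vehicle females 1 was called higher and 0 lower. Of 12 mast cell genes 10, and of 13 dendritic cell genes 4, were called higher against vehicle males. Against vehicle females 0 of the mast cell genes and the same 4 dendritic cell genes were called higher. Endothelial, pericyte and muscle, and keratinocyte genes were among the lower ones. Pecam1, an endothelial adhesion molecule, was at 0 to 0.309 CPM in PTX males, against 31.7 to 203 CPM in vehicle males (adjusted p = 0.00557) and 15.4 to 62.6 CPM in vehicle females (adjusted p = 0.0183). The 10 endothelial genes summed to 27.7 to 136 CPM in PTX males, with Emcn, Kdr, Nos3 and Selp at 0, against 225 to 860 CPM in vehicle males and 177 to 298 CPM in vehicle females. Of these 10, 6 were called lower against vehicle males and 2 against vehicle females. The 10 pericyte and muscle genes summed to 6.66 to 88.2 CPM in PTX males, with Myh4 at 0, against 858 to 2207 CPM in vehicle males and 144 to 768 CPM in vehicle females, and 4 of 9 tested were called lower against vehicle males and 1 against vehicle females. The 12 keratinocyte genes summed to 6.73 to 108 CPM in PTX males, with Dsg3, Krt1 and Trp63 at 0, against 109 to 2854 CPM in vehicle males and 26.8 to 158 CPM in vehicle females, and 3 of 11 tested were called lower against vehicle males and 0 against vehicle females. The part of these cells, and of the lower number of detected genes, in the Arg1 result was not tested. Against vehicle males the adjusted p of Arg1 was 0.0777 with a replicate block and 0.274 with voom. Against vehicle females it was 0.0635, 0.0547, 0.0622 and 0.0724 without vehicle female replicates 1, 2, 3 and 4, 0.143 with a replicate block, 0.467 with voom and 0.0919 when only both groups were fitted. Of all genes 3 were called there with a replicate block, 1 with voom and 2 with only both groups, in place of 213. Leaving out 1 library gave 8 to 520.

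**Figure D2:**
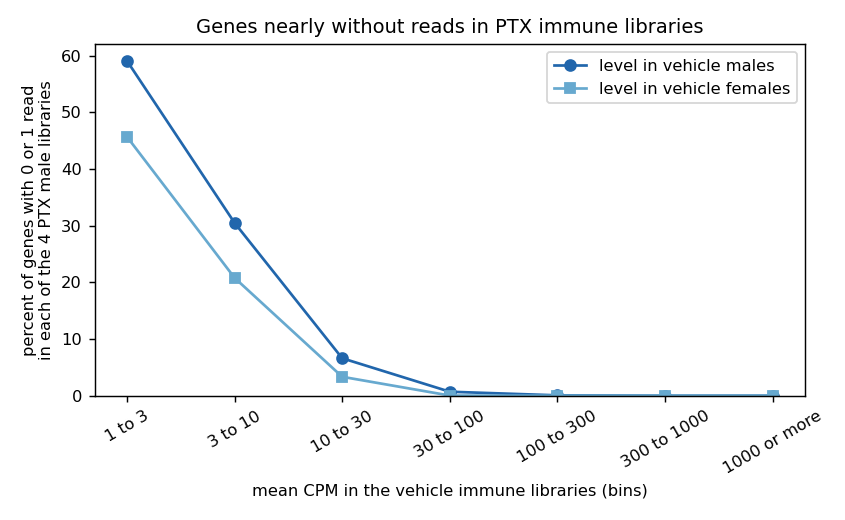
Percent of genes with 0 or 1 read in each of the 4 immune libraries of PTX males (vertical axis), by their mean CPM in vehicle males or vehicle females (bins on the horizontal axis). At 10 to 30 CPM, the bin of Arg1 in vehicle males, 6.61% of genes were at or near 0 by level in vehicle males, and the share falls towards 0 at higher levels.

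Retnla, a secreted resistin-like protein induced with Arg1 in alternative activation, did not share the Arg1 pattern. It was at 374, 2351, 606 and 2066 CPM in PTX males, against 713, 837, 1679 and 824 CPM in vehicle males and 1429, 831, 1318 and 2191 CPM in vehicle females. PTX replicates 1 and 3 lay below all vehicle libraries and PTX replicates 2 and 4 above all vehicle males. Against vehicle males Retnla had a log2 fold change of 0.41 ± 0.51 (adjusted p = 0.836), and of -0.068 with voom.

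Against vehicle males, then, 1 of the 10 genes was called higher and 1 lower, with 0.956% and 4.56% of all 12131 genes tested called in these directions. Groups that did not overlap were found for the same 1 higher and 1 lower gene, against 3.11% and 10.8% of all genes. The median log2 fold change of the 10 genes was 0.60, against 0.10 for all genes, and Arg1 stays the lowest of the 10 whichever value it is given. Against vehicle females, a comparison that differs in sex as well as treatment and shares the PTX libraries, Arg1 was the 1 gene called, with 1.53% of all genes called lower. It was also the 1 gene whose groups did not overlap there, with 5.6% of all genes lower without overlap. The log2 fold changes of the other 9 genes lay between -1.09 and 0.30 there.

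**Figure D3:**
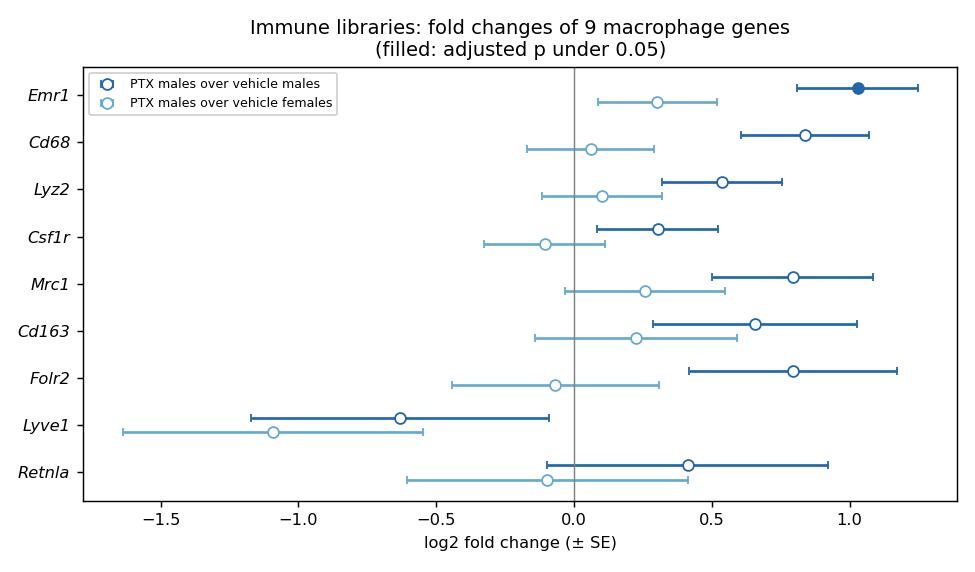
Log2 fold change with SE (horizontal axis) of 9 genes in immune libraries of PTX males over vehicle males (dark) and over vehicle females (light), from edgeR. Emr1 over vehicle males (1.03) is the filled point, and for all 9 genes the value over vehicle males lies to the right of that over vehicle females. Arg1 is left out because its fitted value depends on the prior count.

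In vehicle females against vehicle males all 10 log2 fold changes were positive, from 0.41 to 0.86, and none passed the test, with 0.354% of all genes called. At an unadjusted p under 0.05 edgeR counted 3 of the 10, with 4.11% of all genes, DESeq2 called 0 after adjustment, and voom called 3 (Emr1, Cd68 and Folr2). Over all 12131 genes voom called 445 there, DESeq2 284 and edgeR 43. Emr1 (0.73 ± 0.22, adjusted p = 0.273) and Folr2 (0.86 ± 0.38) did not overlap between the sexes, where 2.07% of all genes were higher without overlap. Cd68 had a log2 fold change of 0.78 ± 0.23 (adjusted p = 0.273). This comparison and that of PTX males share the vehicle male libraries, which held the fibroblast genes given above. The part of those genes in either result was not tested.

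Over the 12 immune libraries Mrc1, Csf1r, Cd163 and Folr2 varied together, with a Pearson r of log2(CPM + 1) of 0.69 to 0.90 over their 6 pairs. Lyve1 had an r of -0.18 to 0.62 with the 8 other genes besides Arg1. The genes whose pattern was most like that of Mrc1 were Fcgr2b (r = 0.875), an inhibitory IgG receptor, Aoah (0.874), an enzyme that inactivates endotoxin, and Csf1r (0.872). For Emr1 they were Pld4 (0.927), Hira (0.923) and Slc16a7 (0.914), and for Arg1 they were Bysl (0.921), Ruvbl2 (0.919) and Mpg (0.904). These are descriptions over n = 12 libraries that share groups, cell mixture and numbers of detected genes.

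Other macrophage genes were counted by list in the same fit of immune PTX males against vehicle males. Of all genes tested 0.956% were called higher and 4.56% lower there. Of 18 further identity genes 1 was called higher and none lower, with a median log2 fold change of 0.61. It was Cd14, the lipopolysaccharide co-receptor, at 4007 to 5411 CPM in PTX males, against 1465 to 2302 CPM in vehicle males (1.36 ± 0.22, adjusted p = 0.00661). Cd14 was also higher than in vehicle females at 1190 to 2220 CPM (1.34 ± 0.22, adjusted p = 0.0183).

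Of 17 genes of resident dermal macrophages 3 were called higher, all C-type lectins: Mgl2 (1.51 ± 0.32, adjusted p = 0.0196), Cd209d (1.26 ± 0.30, adjusted p = 0.0297) and Cd209a (1.69 ± 0.43, adjusted p = 0.0387). Mgl2 was at 512 to 936 CPM in PTX males, against 159 to 316 CPM in vehicle males. None of the 17 was called against vehicle females. Mgl2 and Cd209a are also known from dermal dendritic cells, and of 13 dendritic and Langerhans cell genes 4 were called higher, 3 class II antigen genes (H2-Aa, H2-Ab1, H2-Eb1) and Cd74, which encodes the invariant chain. H2-Ab1 was at 8091 to 18100 CPM in PTX males, against 2912 to 4529 CPM in vehicle males (1.66 ± 0.27, adjusted p = 0.00661). No other gene of that list was called, and the same 4 were the ones called against vehicle females. The summed level of 14 dendritic genes was 28766 to 58241 CPM in PTX males, 10052 to 16777 CPM in vehicle males and 11411 to 22238 CPM in vehicle females, with no gene at 0. H2-Ab1 alone made up 8091 to 18100 CPM in PTX males, so the sum is no measure of dendritic cells alone. The part of dendritic cells in the lectin result was not tested.

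Of 21 genes of alternative activation none was called in either direction, with a median log2 fold change of 0.47. Ccl24, an eosinophil chemokine, was at 465 to 1090 CPM in PTX males, against 337 to 508 CPM in vehicle males (adjusted p = 0.104), and Il4ra, the receptor of IL4 and IL13, was at 308 to 665 CPM against 262 to 481 CPM (adjusted p = 0.679). Of 16 genes of classical activation 3 were called higher and none lower: the chemokine gene Cxcl10 (2.36 ± 0.45, adjusted p = 0.0125) and the cytokine genes Tnf (1.75 ± 0.34, adjusted p = 0.0133) and Il1b (1.75 ± 0.35, adjusted p = 0.015). Of the 16, 12 had a positive log2 fold change and 1 was lower without overlap, as were 10.8% of all genes. Among all 19 listed, Il12a, Il12b and Nos2 had no reads in PTX males, while vehicle males had reads of each. Nos2 had none in vehicle females either. Il1b was at 2293 to 5519 CPM in PTX males, against 621 to 1335 CPM in vehicle males and 456 to 1272 CPM in vehicle females, and was called against vehicle females too (1.90 ± 0.35, adjusted p = 0.0241). Cxcl10 (1.59 ± 0.44, adjusted p = 0.0895) and Tnf (0.73 ± 0.33, adjusted p = 0.297) were not called against vehicle females. In the same sort 10 of 12 mast cell genes were called higher against vehicle males and 0 against vehicle females. The part of mast and dendritic cells in these 3 results was not tested.

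Of 8 genes of the CSF1 receptor axis, Csf1r among them, none was called. Csf2ra, a subunit of the GM-CSF receptor, was at 224 to 505 CPM in PTX males, against 110 to 251 CPM in vehicle males (adjusted p = 0.135). Of 12 monocyte genes Nr4a1, a nuclear receptor of patrolling monocytes, was called higher (1.16 ± 0.17, adjusted p = 0.00494) and Ace lower (-5.88 ± 1.32, adjusted p = 0.0234). None of the 12 was called against vehicle females. The part of other cell types, endothelial cells among them, in both results was not tested. Of 12 pan-immune genes none was called, and their median log2 fold change was 0.60, as for the macrophage genes.

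In the keratinocyte sort, where the PTX libraries went against their label, Lyz2 rose in PTX males, and Csf1r, Folr2, Mrc1 and Retnla had higher values in every PTX library than in any vehicle library without passing the test. Emr1, Cd68, Cd163, Lyve1 and Arg1 overlapped between PTX males and vehicle males. The PTX libraries stood apart from their label before any macrophage gene was considered. The summed level of 12 keratinocyte genes was 6031 to 16175 CPM in PTX males, against 37847 to 42969 CPM in vehicle males and 26835 to 42223 CPM in vehicle females. The 12 fibroblast genes summed to 15820 to 21488 CPM in PTX males, 153 to 750 CPM in vehicle males and 280 to 1363 CPM in vehicle females. The 10 endothelial genes summed to 2825 to 4388 CPM in PTX males, 1.23 to 554 CPM in vehicle males and 4.596 to 36.9 CPM in vehicle females. Ptprc was at 240.0, 236, 149 and 177 CPM in PTX males, against 0.789, 0.542 and 0.464 CPM in vehicle males and 0.798 to 3.91 CPM in vehicle females. In PTX males none of the 12 fibroblast or 10 endothelial genes was at 0 in every library, and the part of these cell mixtures in the macrophage values was not tested.

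Lyz2 was the 1 member called there. It stood at 611, 714, 1290 and 1387 CPM in PTX males, against 15.6, 26.7 and 25.3 CPM in vehicle males and 43.9, 101, 20.5 and 20.4 CPM in vehicle females. The log2 fold change was 5.47 ± 0.77 against vehicle males (adjusted p = 0.000625) and 4.44 ± 0.65 against vehicle females (adjusted p = 0.000677). Of all 10939 genes 1.15% were called higher against vehicle males and 1.32% against vehicle females. The Lyz2 calls were lost with voom (adjusted p = 0.228 and 0.0736), while DESeq2 called 6 members in each comparison. Over all genes DESeq2 called 1339 against vehicle males and 1019 against vehicle females, where edgeR called 159 and 170.

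Folr2 and Retnla had at most 3 reads in any vehicle keratinocyte library. Folr2 was at 97.6, 74.3, 75.7 and 80.3 CPM in PTX males, against 0.0876, 0.181 and 0.279 CPM in vehicle males and at most 0.139 CPM in vehicle females. All 4 PTX libraries lay within a narrow range far above the vehicle libraries. Pooled, there were 3090 Folr2 reads in PTX males, against 5 in vehicle males, a ratio of 449 (95% counting interval 192 to 1380). Retnla was at 68.6, 32.8, 17.8 and 337 CPM in PTX males, with 3552 reads against 3 in vehicle males, a ratio of 859 (294 to 4170). Neither passed the test (adjusted p = 0.181 and 0.146 against vehicle males, 0.0712 and 0.0562 against vehicle females). Both were called by DESeq2 and by voom in both comparisons, and against vehicle females also when only both groups were fitted. The adjusted p over the alternatives ran from 2.62e-06 to 0.361 for Folr2 and from 1.10e-06 to 0.362 for Retnla against vehicle males, and from 7.72e-08 to 0.189 for Folr2 and from 5.81e-08 to 0.223 for Retnla against vehicle females.

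Csf1r was at 89.1, 503, 123 and 296 CPM in PTX males, against 1.66, 10.1 and 2.88 CPM in vehicle males (5.69 ± 1.72, adjusted p = 0.144). Mrc1 was at 18.4, 104, 44.2 and 283 CPM, against 0.613, 1.99 and 0.557 CPM (6.73 ± 2.44, adjusted p = 0.219). Csf1r, Folr2, Lyz2, Mrc1 and Retnla, 5 of the 9 genes tested, did not overlap between PTX males and vehicle males, where 9.15% of all genes were higher without overlap. Against vehicle females it was 5 of 9 as well, with 6.6% of all genes.

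Emr1, Cd68 and Cd163 were uneven among the PTX libraries. Emr1 was at 0.680, 39.2, 64.5 and 0.854 CPM in PTX males, against 0.263, 0.542 and 0.928 CPM in vehicle males, so PTX replicates 1 and 4 were within the vehicle range. Cd68 was at 46.8, 134, 122 and 0.854 CPM, against 3.68, 0.722 and 0.836 CPM, with PTX replicate 4 inside the vehicle range. Cd163 was at 2.62, 119, 38.0 and 198 CPM, against 14.5, 0.361 and 0.371 CPM, with PTX replicate 1 below vehicle male replicate 1.

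Lyve1 was at 49.6, 94.1, 25.6 and 126 CPM in PTX males, against 0, 169 and 13.2 CPM in vehicle males and 0.279, 45.3, 0 and 0.0998 CPM in vehicle females. Vehicle male replicate 2, the highest of all, also had the endothelial gene Pecam1 at 380 CPM, against 0.175 and 0.371 CPM in the other vehicle males, and no reads of Prox1. The log2 fold change of Lyve1 against vehicle males was 0.28 ± 2.40 (adjusted p = 0.999) and was 3.47 without vehicle male replicate 2. It was -0.042 with RLE scaling. Arg1 had 101 reads in PTX replicate 2 and 0 reads in all other keratinocyte libraries of every group, and was not tested there.

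**Figure D4:**
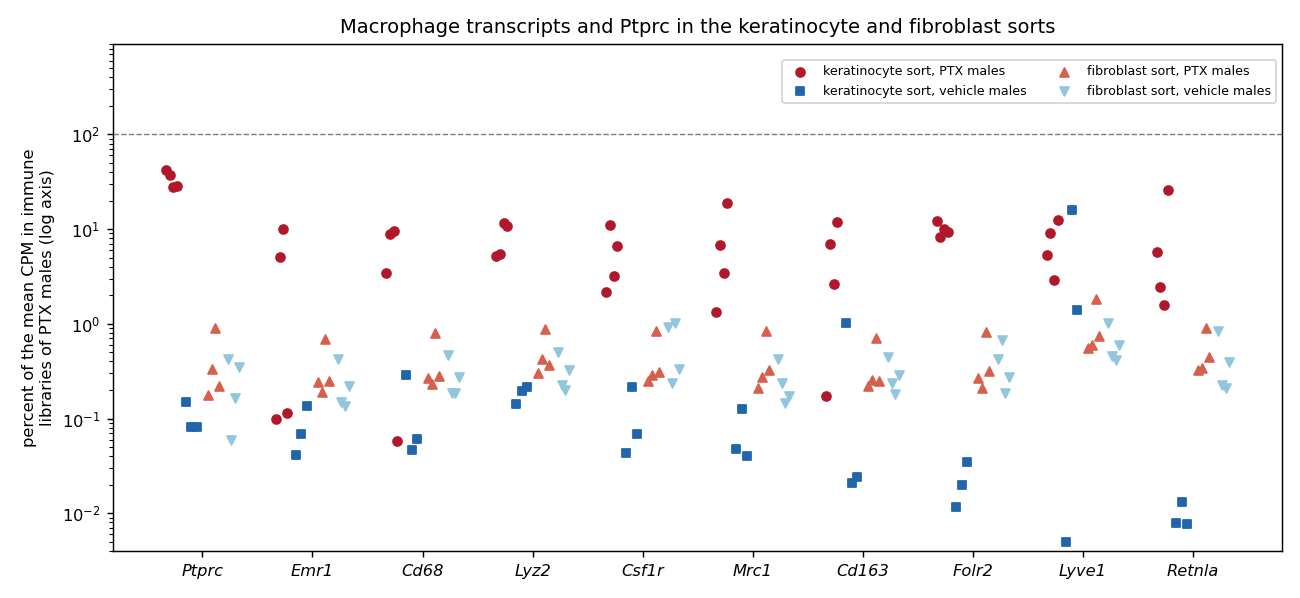
Level of Ptprc and 9 macrophage genes in the keratinocyte and fibroblast sorts of PTX males and vehicle males, as percent of the mean CPM in immune libraries of PTX males (log axis, 1 point per library, 0 drawn at 0.005, dashed line 100%). In the keratinocyte sort of PTX males Ptprc lies at 27.7 to 41.8%, above every library of the 9 macrophage genes, and in the fibroblast sort of PTX males the macrophage genes lie at or under 1.82%.

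The mean plain CPM of PTX male keratinocyte libraries was 33.7 ± 6.79% of that in PTX male immune libraries for Ptprc. For the 9 macrophage genes besides Arg1 it was lower, from 3.83 ± 4.74% for Emr1 to 9.94 ± 1.65% for Folr2, with a median of 7.42%. Within a library the highest of the 9 percentages was 123, 4.46, 7.35 and 445 times the lowest in PTX replicates 1 to 4, so replicates 1 and 4 had the wide spread. In replicate 1 Folr2 was at 12.2% and Emr1 at 0.0990%, and in replicate 4 Retnla was at 25.8% and Cd68 at 0.0580%. Of the 12 pan-immune genes the median was 12.04%, from 6.60% for Cd48 to 33.7% for Ptprc.

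Other macrophage genes were counted by list in PTX male keratinocyte libraries, where 1.15% of all genes were called higher against vehicle males. Of 12 resident macrophage genes tested against vehicle males 4 were called higher: Pf4 (8.40 ± 1.34, adjusted p = 0.00188), Igf1 (10.03 ± 1.92, adjusted p = 0.00809), Sepp1 (4.99 ± 0.98, adjusted p = 0.00965) and F13a1 (8.01 ± 1.85, adjusted p = 0.0309). Timd4 and Vsig4, of the 17 listed, had no reads in any keratinocyte library. The 16 genes of at least 20 CPM in immune PTX males ran from 0 (Timd4) to 93.0% (Igf1) of the immune level, with a median of 15.6%. Igf1 is also expressed by fibroblasts and was at 242% of the immune level in the fibroblast sort of PTX males. Among the further identity genes C1qb (6.79 ± 1.33, adjusted p = 0.00965) was called higher and Apoe, a lipid carrier that keratinocytes also make, lower (-1.28 ± 0.21, adjusted p = 0.00195). C1qb, a complement subunit made by macrophages, was at 218 to 808 CPM in PTX males, against 2.02 to 5.06 CPM in vehicle males. Of 9 classical activation genes Il6 was called higher (10.93 ± 1.35, adjusted p = 0.000164), and of 13 alternative activation genes none was. The classical activation genes are not particular to macrophages here. They summed to 1689 to 4595 CPM in these PTX libraries and to 2661 to 4333 CPM in the fibroblast sort of PTX males. The part of fibroblasts in the Il6 result was not tested.

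In the fibroblast sort the macrophage genes were at trace levels in every group. None of the 9 genes tested passed between PTX males and vehicle males, with log2 fold changes of -0.58 to 0.72, while 0.0184% of all 10857 genes were called. At an unadjusted p under 0.05 edgeR counted 0 of the 9, with 8.07% of all genes, and DESeq2 and voom each called 0. Lyz2 was at 31.8, 65.1, 114 and 40.7 CPM in PTX males, against 74.3, 24.3, 22.9 and 38.8 CPM in vehicle males and 22.6, 13.3, 11.6 and 16.9 CPM in vehicle females. PTX replicate 3 was the highest of the 4 PTX libraries for each of the 9 genes.

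Set against the immune libraries, the 9 genes in PTX males averaged 0.344% (Emr1) to 0.930% (Lyve1) of the immune level, with Ptprc at 0.409%, and within a library the highest percentage was 2.64 to 3.16 times the lowest. In vehicle males it was 2.41 to 7.502 times, where Csf1r stood out at 47.3, 8.91, 41.2 and 13.8 CPM.

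The difference between PTX males and vehicle males was itself different in the keratinocyte and immune sorts for 8 of the 10 genes in a fit with an interaction term, with 9.26% of all 13829 genes called in that direction. In the same fit 11 of 12 fibroblast genes, 9 of 10 endothelial genes and 7 of 9 pericyte and muscle genes were called higher, as were 9 of 12 pan-immune genes. The keratinocyte libraries of PTX males are those that went against their label, and the part of their cell mixture in these differences was not tested. The difference in log2 fold change was largest for Retnla (9.23 ± 1.32, adjusted p = 3.37e-05) and Folr2 (7.72 ± 0.88, adjusted p = 1.145e-06) among those other than Arg1. Keratinocyte libraries of vehicle males held 3 Retnla and 5 Folr2 reads in all, so the size of both differences depends on the prior count. The difference was 5.78 ± 0.96 for Mrc1, 5.18 ± 0.81 for Csf1r and 4.75 ± 0.57 for Lyz2. Cd163 (3.34 ± 1.42, adjusted p = 0.136) and Lyve1 (0.67 ± 2.14, adjusted p = 0.969) did not pass, but Cd163 passed without keratinocyte vehicle male replicate 1 (adjusted p = 0.00277). The Arg1 call (adjusted p = 0.0264) was gone without keratinocyte PTX replicate 2, the library with 101 reads (adjusted p = 0.99989), or without any 1 of the 3 keratinocyte vehicle male libraries (0.0664 to 0.0773). Emr1 (4.26 ± 1.29, adjusted p = 0.0371) lost its call in 9 of 15 fits that left out 1 library, with adjusted p up to 0.089. With voom none of the 10 was called.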

How the data were processed

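Per the labels' protocols, libraries were stranded TruSeq mRNA libraries read as 50-base single ends. The submitters' processing notes name bcl2fastq, TopHat2, HTSeq and build mm9, while program versions, gene annotation and use of strand were not given in the sources used here. Each library's deposited table holds raw whole-number counts by gene symbol. HTSeq's lines for reads in no gene (10.4 to 31.0% of reads) or without a unique place (34.9 to 60.9%) entered neither library sizes nor tests.

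Models were fitted per sort with edgeR 4.0.16 under R 4.3.3 (TMM scaling, filterByExpr, robust glmQLFit, 1 coefficient per group), all genes adjusted by Benjamini-Hochberg at 0.05, two-sided. Differences between sorts were fitted over both. CPM values were computed from the deposited counts. The members and gene lists (21 lists, 245 of 250 entries found) were chosen with earlier results of these data known. All 10 members are described. Of each other list up to 4 passing genes with the lowest p were named, or at most 2 of high level; likeness was ranked among genes of at least 20 CPM, passing over clone-like symbols. Counts of genes near 0 and ratios to Cd68 were added after seeing the data. Alternatives were RLE scaling, plain CPM, no filter, DESeq2 1.42.0, limma 3.58.1 voom with quality weights, a replicate block, only the groups compared, only genes most abundant in vehicle immune libraries, and leaving out each library. Tests were tested on simulated data. No 2 of the 51 pairs of libraries within a group were identical or within counting noise (lowest chi-square per degree of freedom 87.5). RefSeq promoters were found for 6 of the 10 genes. One result of the list of further identity genes in keratinocytes is not reported here.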

Additional observations from a re-analysis of the deposited data

Results flagged for a closer look

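The highest library stood far from the other 3 of its group in 9 of 79 groups of levels examined. The rule used gives about 1 in 20 for independent, normally spread values. Unlogged CPM are bounded at 0, a group with 3 libraries at 0 always meets the rule, and the same library was flagged for several genes. The count is therefore not comparable with chance. In fibroblast PTX males this was replicate 3 for Emr1 (5.20 CPM), Cd68 (11.8 CPM) and Folr2 (7.28 CPM). In keratinocytes of PTX males it was Arg1 at 13.1 CPM in replicate 2 and Retnla at 337 CPM in replicate 4. In keratinocytes of vehicle females it was Mrc1 at 4.69 CPM and Lyve1 at 45.3 CPM in replicate 2, the library of 988712 counts, and Retnla at 0.217 CPM (2 reads) in replicate 3. In immune cells of vehicle males it was Retnla at 1679 CPM in replicate 3.

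The difference between PTX males and vehicle males was greater in the keratinocyte sort than in the immune sort for 8 genes by the interaction test of edgeR. In that fit 11 of 12 fibroblast genes and 9 of 10 endothelial genes were called too, the PTX keratinocyte libraries went against their label, and the part of this in the result was not tested. The adjusted p was 1.145e-06 for Folr2, 2.31e-06 for Lyz2, 3.37e-05 for Retnla, 0.00012 for Csf1r, 0.00023 for Mrc1, 0.0123 for Cd68, 0.0264 for Arg1 and 0.0371 for Emr1. Arg1 lost its call without keratinocyte PTX replicate 2 (0.99989) or any 1 keratinocyte vehicle male library (0.0664 to 0.0773), and Emr1 in 9 of 15 fits that left out 1 library (up to 0.089).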

How the results depend on the processing

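Of the 10 genes, the 2 called in immune PTX males against vehicle males became 1 with plain CPM, 1 with a replicate block, 1 with only genes most abundant in vehicle immune libraries and 0 with voom, and 1 to 3 when 1 library was left out. The 1 called against vehicle females became 0 with a replicate block, voom or only the groups compared, and 0 to 1 without 1 library. For vehicle females against vehicle males voom called 3 in place of 0. In keratinocytes DESeq2 called 6 and voom 2 against vehicle males, and DESeq2 6, voom 2 and only the groups compared 4 against vehicle females, in place of 1. For the difference between sorts voom called 0 in place of 8, and leaving out 1 library gave 6 to 8. The cause was not tested.

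Directions turned for Csf1r with plain CPM (-0.046), Retnla with voom (-0.068) and Lyve1 in keratinocytes of PTX males against vehicle males with RLE scaling (-0.042), no filter (-0.010), DESeq2 (-0.042) and without 1 library (-0.24 to 3.47). Counts over all genes were 669 against immune vehicle males (38 with voom, 1870 with DESeq2), 213 against vehicle females (1 and 1258), 43 between the sexes (4 with immune genes alone, 445 with voom), 159 and 170 in keratinocytes (119 and 131 with a block, 1339 and 1019 with DESeq2), 2 in fibroblasts (0 with voom, 403 with DESeq2) and 1328 between sorts (573 to 3135). Same-numbered immune libraries of different groups had correlations of -0.049 to 0.115, and differently numbered ones of -0.145 to 0.089. For 6 of 12 immune libraries the best match in another group had the same number. Whether replicate numbers pair the libraries is therefore not settled. With the replicate block the all-gene count in immune cells of PTX males was 148 against vehicle males and 3 against vehicle females.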
